A study of Oryza sativa with 4 samples.

Results

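The 8 genes described here are the DNA methyltransferases and the DDM1-type chromatin remodelers of rice. They were picked by locus ID, with earlier results of these data known, and make up 8 of the 57143 rows of the deposited expression table. The study sequenced poly(A) RNA from young panicles, the developing inflorescences, of soil-grown japonica rice. The plants were osrdr2-3, whose genotype label reads DES1 mutant, and Nip, whose genotype label reads control. No allele beyond these names, no plant age and no number of plants per sample are given in the labels. The table holds 3 libraries per genotype, named des1-3, des1-4 and des1-5 in osrdr2-3 and ck1, ck2 and ck3 in Nip, while the labels used here describe 2 samples per genotype. Only ck1 and ck2 could be tied to a labelled sample. The other 4 were placed by genotype from their names alone. Nothing says whether the libraries came from separate plants, so p-values measure only the spread between libraries.

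Plants methylate cytosines in the sequence contexts CG, CHG and CHH, where H is any base but G, and each context has its own enzymes. MET1 enzymes copy CG methylation after replication, CMT3 chromomethylases keep CHG methylation, and CMT2 methylates CHH sites in heterochromatin. DRM2 methylates cytosines in every context at sites marked by small RNAs. Those small RNAs are cut from double-stranded RNA made by RDR2, the enzyme named in the mutant line. DDM1 remodelers open compact chromatin so that methyltransferases can reach transposons.

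Values are the FPKM that the authors deposited, in which fragments are divided by transcript length and by the size of the library. Levels of different genes are thus per length, but in des1-5 and ck3 they still shifted with locus length, as given below. The table has no read counts. From the smallest steps between values, 1 FPKM was worth roughly 23.5, 21.2 and 14.3 fragments per kilobase in des1-3, des1-4 and des1-5, against 21.9, 20.8 and 9.08 in ck1, ck2 and ck3. Libraries des1-5 and ck3 stood apart from the other 4. Across the 22987 rows tested, des1-3 and des1-4 had a Pearson r of 0.991, as had ck1 and ck2. Library des1-5 reached 0.922 and 0.930 with the rest of its genotype, and ck3 reached 0.923 and 0.916. Both gave higher values for loci of at most 2 kb, by a median of 0.60 in des1-5 and 0.59 in ck3 on the log2(FPKM + 1) scale. For loci over 8 kb the medians were -0.17 in des1-5 and -0.18 in ck3. The members span 3968 to 22601 bases, and 5 of the 8 (OsCMT2, OsMET1-1, OsMET1-2, OsCMT3a and OsCMT3b) are over 8 kb. The difference of each member is also given for des1-3 and des1-4 against ck1 and ck2, and for des1-5 against ck3.

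The gene the mutant is named for was lower in osrdr2-3. OsRDR2 (LOC_Os04g39160) had 7.24, 7.18 and 7.79 FPKM in osrdr2-3, against 13.8, 12.8 and 14.6 FPKM in Nip. The log2(FPKM + 1) difference was -0.81 (limma, Benjamini-Hochberg adjusted p = 0.00608). The groups did not overlap, and the transcript was still present in every osrdr2-3 library. The position of the mutation is not given, so this level does not show how much functional enzyme remained.

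The label young panicle was checked against marker genes. The 5 panicle genes OsMADS1, OsMADS7, OsMADS8, OsMADS15 and OSH1 summed to 2358 to 2906 FPKM in osrdr2-3 and to 2653 to 2892 FPKM in Nip, with OsMADS1 the most abundant. The meristem gene OSH1 had 16.2, 18.0 and 23.4 FPKM in osrdr2-3, against 12.6, 13.8 and 14.2 FPKM in Nip. Its groups did not overlap, which held for 27.6% of all rows tested. Its adjusted p was 0.149, or 0.00686 with a term for ck3 and des1-5, in a fit where 43.3% of all rows passed (limma). The 3 tapetum genes, which mark the nutritive layer of later anthers, summed to 2.58 to 3.59 FPKM in osrdr2-3 and to 2.36 to 3.29 FPKM in Nip. Within that sum UDT1 had 1.76, 1.61 and 2.66 FPKM in osrdr2-3, against 0.947, 1.07 and 1.67 FPKM in Nip (limma, adjusted p = 0.323, or 0.0168 with the term). OsC6 had 0, 0.398 and 0.0875 FPKM in osrdr2-3, against 0.440, 0.762 and 0.689 FPKM in Nip, so these genes differed in opposite directions. The 3 green tissue genes summed to 301 to 532 FPKM in osrdr2-3 and to 444 to 728 FPKM in Nip, and 1 of them, the Rubisco small subunit gene RBCS, was lower in osrdr2-3 (limma, log2 difference -0.92, adjusted p = 0.00900). With a term for ck3 and des1-5 all 3 were lower in osrdr2-3 (limma, adjusted p = 0.000168 to 0.0198), in a fit where 21.3% of all rows passed as lower.

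Genes of the developing seed set the genotypes apart far more. A list of 9 seed storage and endosperm genes was added after their values were seen, so it was not tested. GLUA1, a glutelin storage protein gene, had 1.53, 4.29 and 1.38 FPKM in osrdr2-3, against 2801, 2856 and 1477 FPKM in Nip. Wx, a starch synthase gene of the endosperm, had 0.409, 0.483 and 0.824 FPKM in osrdr2-3, against 216, 206 and 244 FPKM in Nip. NFYB1, an endosperm transcription factor gene, had 0.452, 0.941 and 0.292 FPKM in osrdr2-3, against 27.2, 21.9 and 46.0 FPKM in Nip. All 9 genes were lower in each osrdr2-3 library than in each Nip library, and their sum was 21.4 to 26.7 FPKM in osrdr2-3 and 3696 to 6470 FPKM in Nip. ISA1 made up most of the osrdr2-3 sum and differed least, 3.59-fold higher in Nip. It had 15.5, 14.6 and 15.5 FPKM in osrdr2-3, against 54.5, 51.3 and 57.7 FPKM in Nip. In osrdr2-3 the storage protein genes GLUB4, GLUD1 and RAG2 were at or near 0, with 0 to 0.384 FPKM. The Nip libraries thus held transcripts that mark filling seed beside those of the panicle, a tissue the label does not name. In bulk RNA, fewer cells of a type and less RNA per cell cannot be told apart, and this holds for every difference below. The part of seed RNA in the differences of the 8 genes was not tested.

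**Figure D1:**
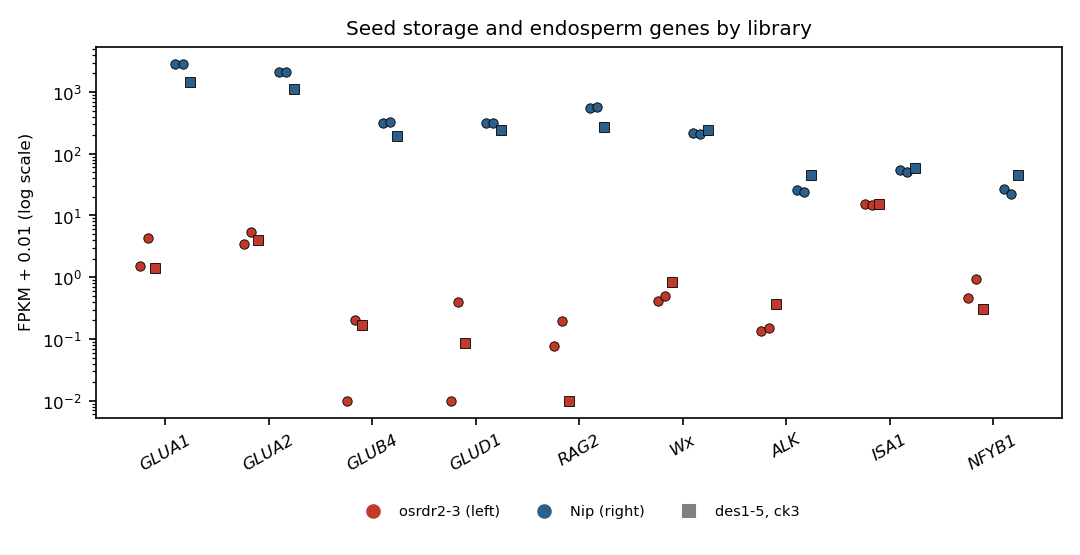
FPKM of 9 seed storage and endosperm genes in each library (vertical axis, log scale, 0.01 FPKM added so that 0 can be drawn), with osrdr2-3 left and Nip right for each gene and squares for des1-5 and ck3. Every Nip point lies above every osrdr2-3 point, and GLUA1 reaches 2856 FPKM in Nip.

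Of the 8 members, 7 had a mean of at least 1 FPKM over the libraries and were tested, and 3 passed the threshold of an adjusted p under 0.05. OsDRM2 rose, and OsMET1-2 and OsCMT3b fell. Over all rows tested, 8.95% passed, 3.12% as higher and 5.83% as lower in osrdr2-3. The median difference was 0.07 over the tested members and 0.01 over all rows. The groups did not overlap for 6 of the 8 members, against 27.6% of the rows tested and 25.0% of the rows above 0 in any library.

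**Figure D2:**
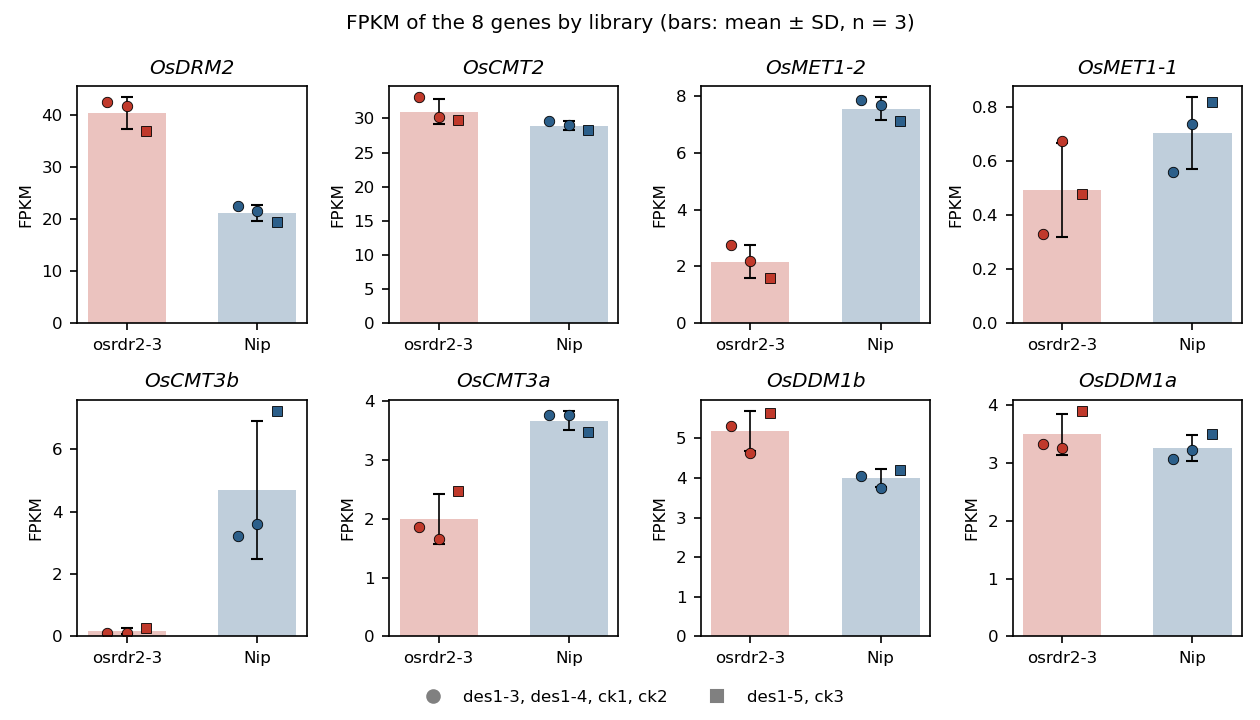
FPKM of the 8 genes (vertical axes from 0, each with its own scale) in osrdr2-3 and Nip, with bars for the mean, error bars for the SD (n = 3) and a point per library, squares being des1-5 and ck3. OsDRM2 stands higher in osrdr2-3, at 36.9 to 42.5 FPKM, and OsMET1-2 and OsCMT3b stand lower there.

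OsDRM2 (LOC_Os03g02010, chromosome 3, 632428 to 636395 in the coordinates of the table) encodes the de novo methyltransferase that acts downstream of RDR2. It had 42.5, 41.6 and 36.9 FPKM in osrdr2-3, against 22.5, 21.5 and 19.4 FPKM in Nip. Every osrdr2-3 library lay well above every Nip library. The means were 40.3 ± 3.00 FPKM in osrdr2-3 and 21.1 ± 1.56 FPKM in Nip (SD, n = 3 each), a ratio of 1.91. The log2(FPKM + 1) difference was 0.90, with a 95% interval of 0.65 to 1.15 (limma, adjusted p = 0.00413). It was 0.91 for des1-3 and des1-4 against ck1 and ck2 and 0.89 for des1-5 against ck3. With ck1 and ck2 averaged, and des1-3 and des1-4 averaged, because these pairs are so alike, 1.31% of all rows passed and no member did, while 3 had an unadjusted p under 0.05 (limma). The log2 differences were then 0.90 for OsDRM2, -1.50 for OsMET1-2 and -2.34 for OsCMT3b, with adjusted p of 0.177, 0.138 and 0.137 (limma).

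OsCMT2 (LOC_Os05g13780, chromosome 5, 7625771 to 7648371, a row it shares with LOC_Os05g13790) encodes the chromomethylase of CHH sites that works without small RNAs. It had 33.1, 30.2 and 29.8 FPKM in osrdr2-3, against 29.6, 29.0 and 28.3 FPKM in Nip. The osrdr2-3 libraries were all above the Nip libraries, the nearest by a narrow margin. The log2 difference was 0.09, with a 95% interval of -0.11 to 0.30 (limma, adjusted p = 0.649). It was 0.11 for des1-3 and des1-4 against ck1 and ck2 and 0.07 for des1-5 against ck3.

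OsDRM2 and OsCMT2 were the most abundant members in every library, but their order was not the same in the genotypes. The row of OsCMT2 also covers LOC_Os05g13790. The order and shares given here therefore hold for that row, and may not hold for OsCMT2 alone. OsDRM2 was above OsCMT2 in all 3 osrdr2-3 libraries, with FPKM ratios of 1.28, 1.38 and 1.24. OsCMT2 was above OsDRM2 in all 3 Nip libraries, with ratios of 0.761, 0.740 and 0.686. The log2(FPKM + 1) of OsDRM2 minus that of OsCMT2 was on average 0.81 higher in osrdr2-3. Its exact two-sided permutation p of 0.1 is the smallest that 3 against 3 libraries allow. This was 1 of 4 such comparisons within pairs of members, and all had this p, also after Benjamini-Hochberg adjustment. OsDRM2 made up 52.7%, 54.4% and 51.6% of the summed FPKM of the 6 methyltransferases in osrdr2-3, against 33.3%, 32.4% and 29.3% in Nip. That sum was 76.2 ± 4.60 FPKM in osrdr2-3 and 66.7 ± 0.674 FPKM in Nip (SD, n = 3 each).

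**Figure D3:**
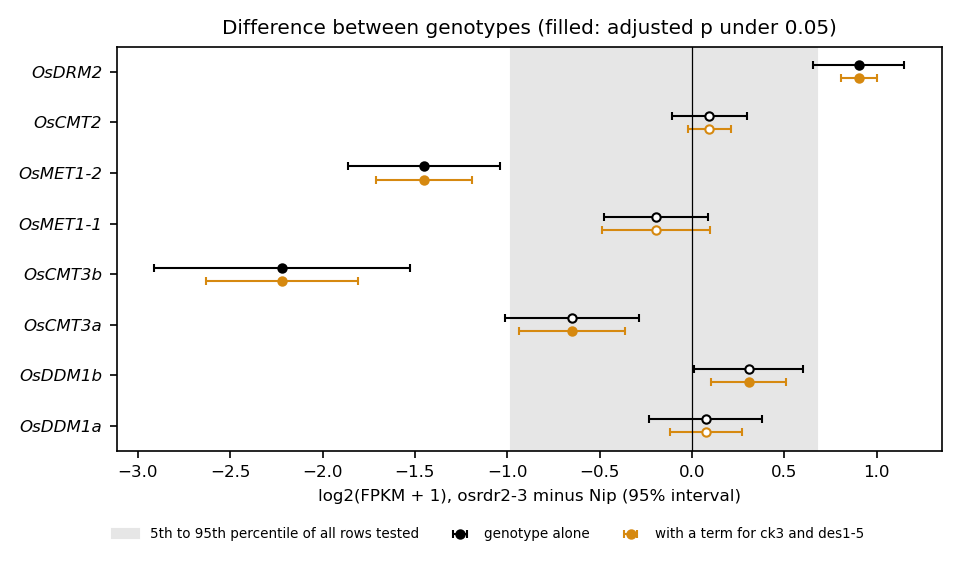
Difference in log2(FPKM + 1), osrdr2-3 minus Nip, for each gene (horizontal axis, points with 95% intervals) from the fit with genotype alone and from the fit with an added term for ck3 and des1-5. Filled points passed an adjusted p under 0.05, and the grey band spans -0.98 to 0.68, the 5th to 95th percentile of all rows tested.

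OsMET1-2 (LOC_Os07g08500, chromosome 7, 4380938 to 4391957), the more abundant of the CG maintenance enzymes in these libraries, fell. It had 2.73, 2.17 and 1.58 FPKM in osrdr2-3, against 7.88, 7.69 and 7.11 FPKM in Nip. The highest osrdr2-3 library was far below the lowest Nip library. The means were 2.16 ± 0.576 FPKM in osrdr2-3 and 7.56 ± 0.400 FPKM in Nip (SD, n = 3 each), 3.50-fold higher in Nip. The log2 difference was -1.45, with a 95% interval of -1.86 to -1.04 (limma, adjusted p = 0.00456). It was -1.35 for des1-3 and des1-4 against ck1 and ck2 and -1.65 for des1-5 against ck3.

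Its copy OsMET1-1 (LOC_Os03g58400, chromosome 3, 33273330 to 33282919) was low in all libraries. It had 0.328, 0.676 and 0.477 FPKM in osrdr2-3, against 0.559, 0.736 and 0.818 FPKM in Nip, and the groups overlapped. In a fit with no filter on low values the log2 difference was -0.19, with a 95% interval of -0.48 to 0.09 (limma, adjusted p = 0.458, 7.79% of 34770 rows passing). The difference was -0.14 for des1-3 and des1-4 against ck1 and ck2 and -0.30 for des1-5 against ck3. The FPKM of OsMET1-2 over that of OsMET1-1 was 8.33, 3.21 and 3.32 in osrdr2-3, against 14.1, 10.5 and 8.70 in Nip. The paired genes together had 2.65 ± 0.527 FPKM in osrdr2-3 and 8.26 ± 0.290 FPKM in Nip (SD, n = 3 each).

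OsCMT3b (LOC_Os03g12570, chromosome 3, 6657549 to 6668727) encodes a chromomethylase of the CHG type and had the lowest ratio of osrdr2-3 to Nip among the 8 genes. It had 0.123, 0.111 and 0.269 FPKM in osrdr2-3, against 3.23, 3.60 and 7.24 FPKM in Nip. Library ck3 was high among the Nip libraries, and no osrdr2-3 library came near any of them. By the estimated depth these were about 2.89, 2.34 and 3.86 fragments per kilobase in osrdr2-3, against 70.7, 74.8 and 65.7 in Nip, so the osrdr2-3 values rest on few fragments. The means were 0.168 ± 0.0880 FPKM in osrdr2-3 and 4.69 ± 2.22 FPKM in Nip (SD, n = 3 each). The log2(FPKM + 1) difference was -2.22, with a 95% interval of -2.91 to -1.53 (limma, adjusted p = 0.00654). The added 1 FPKM shrinks differences at such levels, and with 0.1 FPKM added it was -4.12. It was -1.98 for des1-3 and des1-4 against ck1 and ck2 and -2.70 for des1-5 against ck3.

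Such a loss was shared by other rows. Of 20192 rows with a Nip mean of at least 2 FPKM, 508 (2.52%) had an osrdr2-3 mean under 5% of it, and OsCMT3b was among them. In the other direction 82 rows of 19715 met the same limits, with no member among them. The neighbour LOC_Os03g12560, at 6654499 to 6656681 on the same chromosome, did not share it, with 4.99, 5.16 and 12.2 FPKM in osrdr2-3, against 6.79, 4.91 and 15.5 FPKM in Nip. The neighbour on the other side, LOC_Os03g12580, was listed at 0 in all libraries. These limits were chosen after the values were seen.

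OsCMT3a (LOC_Os10g01570, chromosome 10, 377146 to 385356), the other chromomethylase of the CHG type, had 1.86, 1.66 and 2.47 FPKM in osrdr2-3, against 3.77, 3.77 and 3.48 FPKM in Nip. The groups did not overlap, but des1-5 and ck3 lay closest to each other. The log2 difference was -0.65, with a 95% interval of -1.01 to -0.29, and missed the threshold (limma, adjusted p = 0.0519). It was -0.79 for des1-3 and des1-4 against ck1 and ck2 and -0.37 for des1-5 against ck3. With a term for ck3 and des1-5, chosen after these were seen to stand apart, the adjusted p was 0.00576, in a fit where 43.3% of all rows passed. With that term and the close pairs averaged it was 0.0604 (limma). The FPKM of OsCMT3b over that of OsCMT3a was 0.0663, 0.0665 and 0.109 in osrdr2-3, against 0.856, 0.955 and 2.08 in Nip.

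OsDDM1b (LOC_Os03g51230, chromosome 3, 29305405 to 29311726) had 5.31, 4.64 and 5.63 FPKM in osrdr2-3, against 4.04, 3.76 and 4.20 FPKM in Nip. All osrdr2-3 libraries lay above all Nip libraries. The log2 difference was 0.31, with a 95% interval of 0.01 to 0.60 before adjustment (limma, adjusted p = 0.226). The difference was 0.28 for des1-3 and des1-4 against ck1 and ck2 and 0.35 for des1-5 against ck3. With the term for ck3 and des1-5 the adjusted p was 0.0264, but it was 0.104 with the term and the close pairs averaged and 0.0526 with the term and no filter (limma).

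OsDDM1a (LOC_Os09g27060, chromosome 9, 16460342 to 16467627), the second remodeler gene, had 3.33, 3.25 and 3.90 FPKM in osrdr2-3, against 3.06, 3.22 and 3.50 FPKM in Nip. The groups overlapped. The log2 difference was 0.07, with a 95% interval of -0.23 to 0.38 (limma, adjusted p = 0.858). The difference was 0.05 for des1-3 and des1-4 against ck1 and ck2 and 0.12 for des1-5 against ck3. Together the remodelers had 8.68 ± 0.822 FPKM in osrdr2-3 and 7.26 ± 0.385 FPKM in Nip (SD, n = 3 each).

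**Figure D4:**
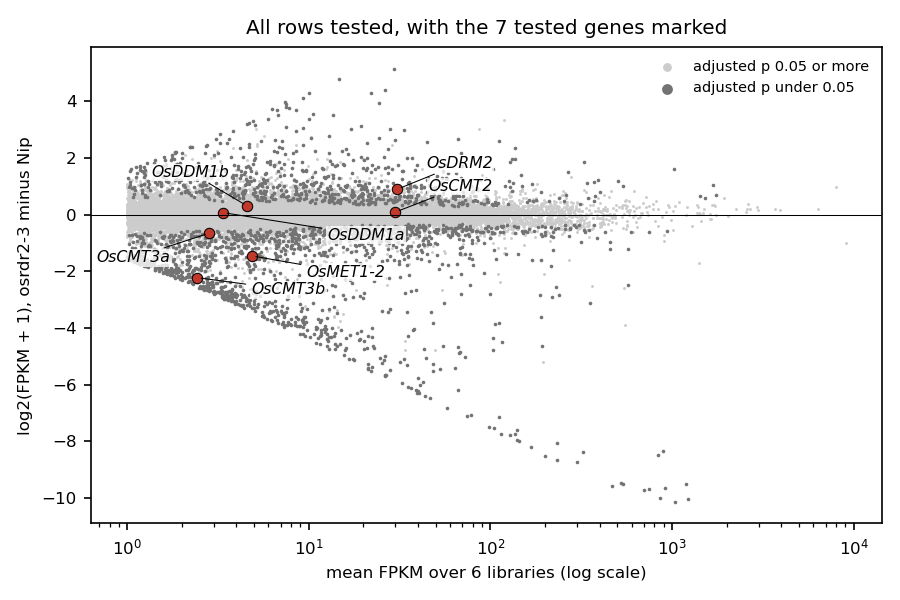
Difference in log2(FPKM + 1), osrdr2-3 minus Nip (vertical axis), against mean FPKM over 6 libraries (horizontal axis, log scale) for all 22987 rows tested, with the 7 tested members in red and rows past the threshold in dark grey. OsCMT3b lies, at -2.22, among the rows along the lower edge, which are near 0 in osrdr2-3.

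The order of the 8 levels put the lowest place with different genes in the genotypes. OsCMT3b was lowest in all 3 osrdr2-3 libraries and OsMET1-1 in all 3 Nip libraries. In every library of the genotype, 6 members reached 1 FPKM in osrdr2-3 and 7 in Nip. Of the 8 genes, 4 lie on chromosome 3 (OsDRM2, OsCMT3b, OsDDM1b and OsMET1-1), and these include a member that rose and one that fell.

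MET1 acts on newly copied DNA, so genes of DNA replication were set beside the members. The list of 7 replication genes comprised OsPCNA, the sliding clamp, and OsMCM2 to OsMCM7, the subunits of the replicative helicase. This list was chosen with earlier results of these data known, so its counts are descriptive and not an independent test. Of these, 5 fell and none rose, where 5.83% of all rows passed as lower, with a median log2 difference of -0.80 against 0.01 over all rows. With the term for ck3 and des1-5 all 7 passed as lower, where 21.3% of all rows did. OsMCM3 had 1.83, 1.73 and 1.68 FPKM in osrdr2-3, against 5.07, 5.23 and 4.40 FPKM in Nip (limma, log2 difference -1.10, adjusted p = 0.00394). OsPCNA had 20.4, 20.8 and 22.0 FPKM in osrdr2-3, against 29.8, 27.9 and 32.3 FPKM in Nip (limma, log2 difference -0.49, adjusted p = 0.0285). OsMCM2, OsMCM4 and OsMCM5 fell as well, with log2 differences of -1.17, -0.84 and -0.80. OsMCM6 and OsMCM7 had -0.68 and -0.80 and missed the threshold (limma, adjusted p = 0.0754 and 0.0718), and with the term these were 0.00335 and 0.00291. The actin gene ACT1, often used as a constant standard, also fell, with 106 ± 6.52 FPKM in osrdr2-3 and 167 ± 6.79 FPKM in Nip (SD, n = 3 each; limma, adjusted p = 0.00743). The part of these genes in the lower OsMET1-2 and OsCMT3b was not tested.

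**Figure D5:**
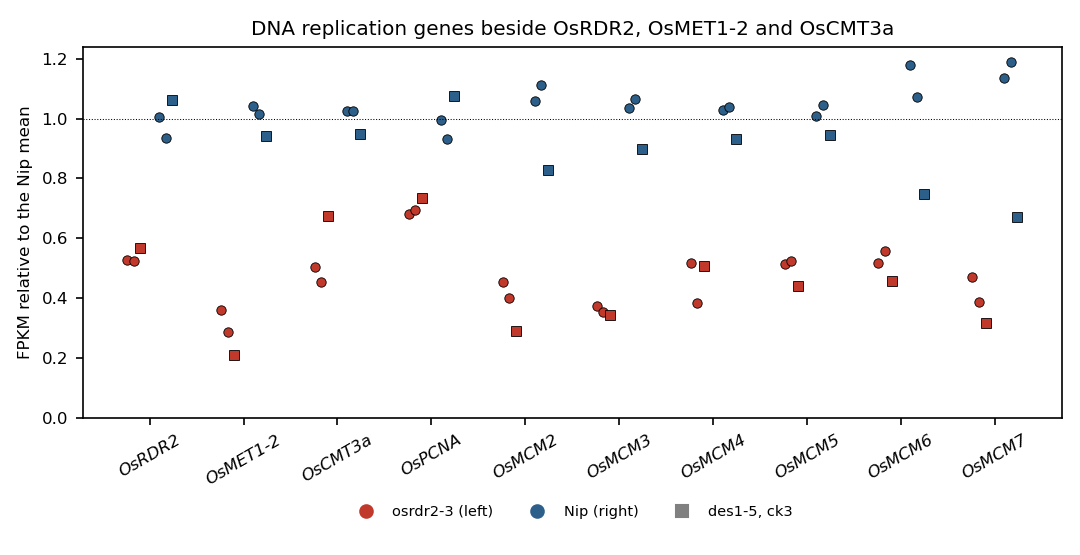
FPKM relative to the Nip mean (vertical axis) of OsRDR2, OsMET1-2, OsCMT3a and 7 DNA replication genes in each library, osrdr2-3 left and Nip right, with squares for des1-5 and ck3. The osrdr2-3 points lie below the Nip points for every gene shown, while the groups did not overlap in 27.6% of all rows tested. OsCMT3a, OsMCM6 and OsMCM7 missed the threshold in the fit with genotype alone.

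Other genes of the pathway were read only where RefSeq gave the same name near the same place, which held for 3 of 10 genes of RNA-directed DNA methylation and 1 of 6 demethylase genes. Besides OsRDR2 none of these passed. OsAGO4a, an Argonaute that carries the small RNAs, had 138 ± 14.1 FPKM in osrdr2-3 and 163 ± 14.3 FPKM in Nip (SD, n = 3 each; limma, log2 difference -0.24, adjusted p = 0.329). With the term for ck3 and des1-5 its adjusted p was 0.00164 (limma), in a fit where 43.3% of all rows passed. OsAGO4b had a log2 difference of 0.00 (limma, adjusted p = 0.997). The demethylase gene OsROS1c was low, with 2.30, 2.42 and 0.94 FPKM in osrdr2-3, against 1.84, 2.09 and 1.05 FPKM in Nip. Its log2 difference was 0.10 (limma, adjusted p = 0.937). The locus given for it, of 57372 bases, is also that of another row.

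The rows most alike to OsDRM2 over the 6 libraries, by Pearson r of log2(FPKM + 1), were LOC_Os05g30210 (0.9999) and LOC_Os06g43660 (0.9995). Those most alike to OsCMT3b were LOC_Os09g26360 and LOC_Os06g39060 (0.9997 each). With so few libraries such values mostly follow the split between the genotypes, and 590 of 20907 rows had an r over 0.95 with OsDRM2 and 921 with OsCMT3b.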

How the data were processed

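The authors deposited FPKM values per row and library, per the file headers, for all 15 pairs of 6 libraries. The submitters' processing notes name TopHat, with no version. The estimator, the build and the gene models were not given in the sources used here. No strand-marking step is named in the labels' protocols, so overlapping antisense reads may not be separable. Each library had the same value in every pair.

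Libraries with names starting with ck were read as Nip, taking ck to mean control although no label explains it, and those starting with des1 as osrdr2-3. This grouping comes from the definition of the gene set and the genotype labels. Of the 6 names, 4 have no labelled sample of their own, and there are more names than labelled samples.

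limma 3.58.1 in R 4.3.3 (trend on) was fitted to log2(FPKM + 1) for the 22987 rows whose mean reached 1 FPKM, with Benjamini-Hochberg adjustment over all of them and a threshold of 0.05. The planned fit was tested on simulated data. A fold change on this scale understates that of low genes. Ratios were tested as differences in log2(FPKM + 1) between the paired members, with exact permutation tests (scipy 1.17.1). Depth was estimated from the first percentile of FPKM times locus span, over loci of 300 to 2500 bases, and gives only a rough scale of the counting error.

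The members and gene lists were chosen with earlier results of these data known, and the seed list and the settings for ck3 and des1-5 after their values were seen. The rule for named genes took all 8 members, OsRDR2 and, of each other list, the genes past the threshold, or the most abundant where none passed. It was applied to genes with a RefSeq name only. The 14 listed genes without one, 1 of them past the threshold, are not reported, and so neither is the list of histone methyltransferases, which had none. Further genes of the lists, such as OsAGO4a, OsAGO4b, OsMCM6, OsMCM7 and the markers, were named to account for their lists, with their values seen. Symbols of OsDRM2, OsMET1-1, OsMET1-2 and OsCMT3a and of 23 of 37 listed genes were matched to RefSeq (assembly ASM3414082v1) by name within 5 Mb. The names of the other 4 members come from the definition of the set. Alternatives covered the pseudocount, filter, scaling, trend and libraries left out or averaged.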

Additional observations from a re-analysis of the deposited data

How the results depend on the processing

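No difference of a member changed sign under any alternative run, but most alternatives could not change it. Dropping the trend or the filter, or adding a term for ck3 and des1-5, leaves the estimate as it is. For the 6 members whose groups do not overlap, leaving out or averaging libraries cannot reverse the sign. OsMET1-1 had only 1 alternative. OsDRM2 lost its call in 3 of 17 alternatives (log2 difference 0.81 to 0.90, adjusted p = 0.0628 to 0.177), OsMET1-2 in 2 (adjusted p = 0.0822 and 0.138) and OsCMT3b in 1 (adjusted p = 0.137). OsCMT3a gained one in 6 and OsDDM1b in 1. All adjusted p are from limma. The 2058 rows past the threshold became 9946 with a term for ck3 and des1-5, 8283 with both left out, 10461 with that term and no filter, 304 with the close pairs averaged, 7067 with these averaged and the term, and 815 or 917 with ck1 and ck2 against des1-5 and des1-3 or des1-4. Leaving out each library gave 975 to 1833, and leaving out des1-3, des1-4, ck1 or ck2 lowered the number by over 1.5 times. Of the members, 3 passed, where 8.95% of all rows did. With the term 5 passed, where 43.3% of all rows did, and with ck1 and ck2 against des1-3 and des1-5 it was 1. With the close pairs averaged 0 of 7 passed in limma, where 1.31% of all rows did, and 3 had an unadjusted p under 0.05. Leaving out each library gave 3 to 4. At a minimum of 5 FPKM, 2 members remained in osrdr2-3 and 3 in Nip. Beyond fewer libraries or rows, the cause was not tested. All 64 alternative levels moved by less than 1 SD. Leaving out 1 of 3 libraries cannot move a mean by more, and the scaling factors were 0.987 to 1.03. This therefore does not show that the levels are stable. No paired analysis was possible because the library names share no replicate numbers that the labels tie to both genotypes. Values under 1 FPKM, those of OsMET1-1 and of OsCMT3b in osrdr2-3, rest on few fragments.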
